A study of Mus musculus with 4 samples.

Results

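The accessibility of 10 genes that mark adipose progenitors and fibroblasts was examined in ATAC-seq peak lists from mouse visceral adipose tissue. The genes were Pdgfra, Dpp4, Pi16, Cd34, Ly6a, Dcn, Lum, Icam1, F3 and Cd55, chosen by name as markers of these cells, out of 21000 coding genes with a curated RefSeq transcript. For each gene, peaks were taken within 500 bp of any curated start site, called the promoter here, and across a locus that ran from 20 kb upstream of the first start site to the gene end. The 10 loci held 67 of the 147157 regions obtained by merging the peaks of all libraries.

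ATAC-seq finds accessible chromatin as places where a transposase could cut and tag the DNA, which appear as pile-ups of reads. The 4 libraries, 2 control and 2 BPA, came from 8-week-old animals of the outbred CD-1 stock, a library for each animal. Ancestral dams had received daily intraperitoneal injections on embryonic days 7.5 to 13.5, either of sesame oil (control) or of bisphenol A at 50 mg/kg (BPA). The labels place the BPA animals in the F3 generation and the study's text in the F4 generation, which was not resolved here. The replicate number on the deposited BPA 2 list also differs from the label's. The nuclei came from homogenised whole tissue without sorting, so a smaller number of cells of a type and lower accessibility per cell cannot be told apart. Nothing in the labels names the sex of the animals, a litter or a batch, so such factors cannot be told apart from the treatment. No test between the groups was run, since with 2 libraries against 2 the smallest two-sided p of an exact permutation is 0.333.

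White adipose tissue holds, beside its lipid-filled adipocytes, a stroma of fibroblast-like progenitors, vessels and immune cells. The progenitors carry the growth factor receptor PDGFRα, the surface proteins CD34 and SCA-1 (encoded by Ly6a) and secrete matrix proteoglycans such as decorin and lumican. Within them, cells marked by DPP4, PI16 and CD55 lie in the fibrous sheath around the organ and give rise to ICAM1+ committed preadipocytes, while cells marked by CD142, the product of F3, have been described as a regulatory population that restrains fat cell formation. Promoters of genes in use, and enhancers at a distance from them, are as a rule accessible.

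Control 1 and control 2 had 82665 and 88911 peaks, BPA 1 and BPA 2 had 72375 and 98060. Depth was judged from the lowest local background of a library, in overlapping extended reads, which was 2.85, 2.70, 1.16 and 3.80 in the same order, so BPA 1 was the shallowest library. Because of this, a peak is given below by its rank within its own list by the deposited −log10 q-value, as a percent of the list in which a low percent is a strong peak. Pile-ups are the reads over the summit and are not corrected for depth.

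The tissue label was checked against marker genes. All 8 mature adipocyte markers, Adipoq and Plin1 among them, had a promoter peak in every library, and the 3 hepatocyte genes Alb, Apoa1 and Ttr had none in any. Markers of vessels and macrophages had more promoter peaks in both BPA libraries, and those of other cells gave mixed counts. Of 8 endothelial markers, 2 had a promoter peak in each control library and 8 in each BPA library. Pecam1, Cdh5, Erg, Emcn, Vwf and Tie1 were the 6 that were open only in the BPA libraries, Tie1 with ranks of 10.0% in BPA 1 and 8.44% in BPA 2. Of 6 macrophage markers, 2, 2, 4 and 5 had a promoter peak, in the order of control 1, control 2, BPA 1 and BPA 2, with Cd68 and Mrc1 open only in BPA. For 5 pericyte and smooth muscle markers the counts were 3, 3, 4 and 5, with Rgs5 open only in BPA. For 5 mesothelial markers they were 4, 2, 2 and 1, and for 3 lymphocyte markers 1, 0, 0 and 0. Among 4 epithelial markers the counts were 2, 0, 2 and 2, with Cdh1 open only in BPA, and 2 of 3 Schwann cell markers were open in every library. Cd34 and Icam1 are also expressed by endothelial cells. The part of other cell types in the values below was not tested.

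Most of the 10 promoters were accessible whatever the treatment. A promoter peak was found for 8 genes in each control library and 9 in each BPA library, while 62.6%, 61.4%, 64.1% and 67.4% of all coding genes had one in control 1, control 2, BPA 1 and BPA 2. Pdgfra, Dpp4, Cd34, Dcn, Lum, Icam1, F3 and Cd55 were the 8 genes with a promoter peak in all 4 libraries, which was the case for 57.9% of coding genes. Pi16 was open in both BPA libraries and in no control library, a pattern found at 2.51% of coding promoters. No member showed the opposite pattern, found at 0.433% of coding promoters. Ly6a had no promoter peak in any library, as had 30.4% of coding genes.

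**Figure D1:**
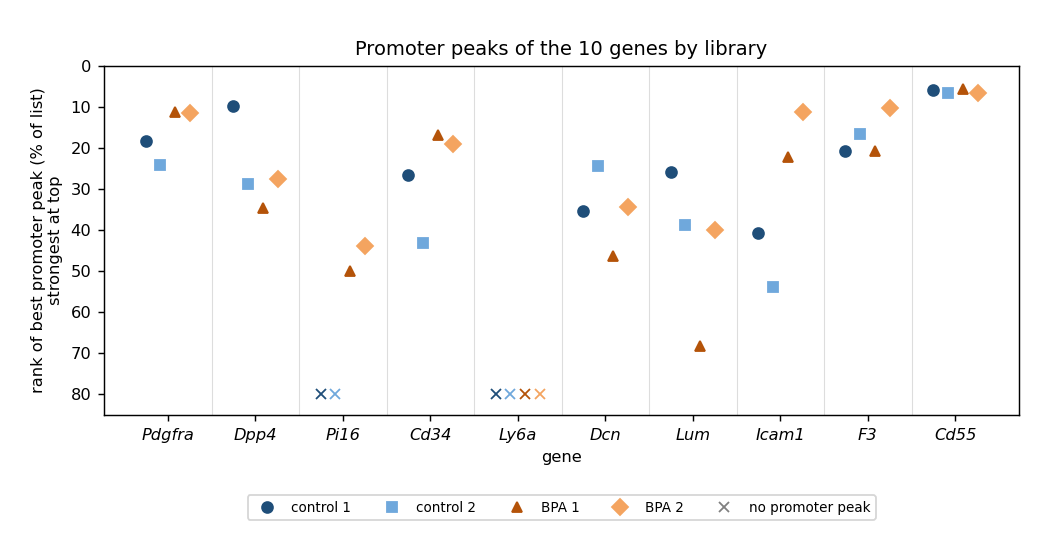
Rank of the best promoter peak of each gene (vertical axis, percent of the list, strongest at the top) in each of the 4 libraries, with crosses for libraries without a promoter peak. Pdgfra, Cd34 and Icam1 ranked better in both BPA libraries than in both control libraries, Lum worse, and Cd55 lay between 5.79% and 6.74% throughout.

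The promoters of the members were weaker than the typical open promoter. Over the 8 promoters open in every library the median rank was 23.4% and 26.7% in the controls and 21.6% and 15.3% in BPA. Over all 12166 coding promoters open in every library it was 8.46%, 9.77%, 8.44% and 5.94%. The median difference between the mean BPA rank and the mean control rank was −1.58 percentage points for the members and −1.84 for all open promoters, a like size. The sign for the members turned when BPA 2 was left out (0.816) and when ranks were taken among promoter peaks only (2.75). Single members moved much further, in both directions. Both BPA ranks were better than both control ranks at 3 of the 8 promoters (background 40.7%) and worse at 1 (background 18.7%), and the groups overlapped at 4.

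Pdgfra encodes the receptor that is used most widely to recognise mesenchymal progenitors. It has 3 curated start sites, of which only the most downstream had a promoter peak, in all 4 libraries. That peak ranked at 18.3% and 24.3% in the controls and at 11.2% and 11.6% in the BPA libraries, means of 21.3% ± 4.26 (SD, n = 2) and 11.4% ± 0.289 (SD, n = 2). The groups did not overlap, and the difference of −9.97 percentage points exceeded either spread. The summit of the peak also differed in position. It lay 1058 bp and 1053 bp downstream of the start site in the control libraries, and 141 bp and 138 bp downstream in BPA 1 and BPA 2. The ranks thus compare summits at different positions, and whether these belong to a single element was not tested. When only summits inside the promoter were accepted, Pdgfra therefore counted as open in BPA only. The region spans chr5:75155707-75157299 (mm10) and includes exon 1 of the transcript that starts there. The local background of this peak was 3.93 and 3.15 times the lowest of the library in the controls, and 11.3 and 10.6 times in BPA.

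The remaining Pdgfra locus held regions that differed in both directions. A region 3.36 kb upstream of the first start site, chr5:75148413-75149173, was found only in the BPA libraries, at ranks of 40.7% and 32.2% and with pile-ups of 30 and 96 reads. A region in the first intron, 2.16 kb downstream, was stronger in the controls by rank, at 14.7%, 16.6%, 28.4% and 60.6% in control 1, control 2, BPA 1 and BPA 2. Its pile-ups were 55, 52, 58 and 102 reads, over a local background of 3.94, 3.28, 11.7 and 12.0 times the lowest, so that its pile-ups, uncorrected for depth, were no lower in BPA while its surroundings were higher. Further regions at 31.8 kb, in the untranslated end of the short transcripts, and at 33.5 kb, in an intron, had ranks of 21.7%, 53.4%, 63.0% and 97.5%, and of 32.7%, 18.3%, 46.6% and 79.5%. Here the local background was 1.63 to 2.51 times the lowest in BPA and 2.69 to 3.35 times in the controls. The region 8.88 kb upstream overlapped between the groups, at 13.6%, 28.9%, 26.3% and 18.4%. A peak found in BPA 2 alone, with its summit 996 bp upstream of the first start site, was the nearest to a promoter that was not counted as one.

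Cd34 encodes a sialomucin of progenitors and of vessel walls. Its promoter peak ranked at 26.7% in control 1 and 43.2% in control 2, against 16.8% in BPA 1 and 19.1% in BPA 2. The groups did not overlap, with means of 34.9% ± 11.7 and 17.9% ± 1.58 (SD, n = 2 each). The strongest region of the locus lay 8.88 kb upstream and moved the other way, with ranks of 7.61% and 10.4% in the controls and 21.2% and 18.1% in BPA. Of the 7 regions of the locus, 2 were found only in BPA. The first lay 10.8 kb upstream (92.0% and 49.1%), and the second in intron 1, at chr1:194945299-194946091, with ranks of 51.9% and 35.7% and pile-ups of 22 and 64 reads. A region in intron 4, chr1:194950739-194951229, was found only in the controls, at 62% and 63% and with 19 and 18 reads.

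Ly6a encodes SCA-1, the antigen by which mouse stromal progenitors are commonly sorted. The locus held a single region, in intron 3 at chr15:74995393-74996294, 2.48 kb downstream of the start site. It was found only in the BPA libraries, at ranks of 43.9% and 61.9%, with 15 and 24 reads over the lowest background of each library. Ly6a belongs to a cluster of similar genes, and the authors kept only uniquely mapped reads. In the reference genome 52.0% of the 50-base words within 500 bp of its start site occur once, against 97.4% to 100% in the windows of the other members. How far this lowered the chance of a promoter peak was not tested.

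Dcn and Lum encode decorin and lumican, leucine-rich proteoglycans that bind collagen fibrils, and are neighbours on chromosome 10. The Dcn promoter ranked at 35.3%, 24.5%, 46.4% and 34.3% in control 1, control 2, BPA 1 and BPA 2, and the groups overlapped. Its second start site had a peak in both controls and in BPA 2 and none in BPA 1. Of 12 regions in the Dcn locus, 10 and 7 were present in the controls, and 2 and 5 in BPA 1 and BPA 2. In a single control library alone were 6 of the 12, while 35.6% of regions in all coding loci were found in a single library of either group. Counts by library were not taken over all coding loci, and BPA 1 had the shortest list. A region 9.90 kb upstream was the strongest, at 11.8% and 13.3% in the controls and 39.4% and 31.8% in BPA, without overlap. A region in intron 2, chr10:97483788-97484675, was found only in the controls, at 49.0% and 89.1%. The Lum promoter ranked at 26.0% and 38.9% in the controls and at 68.3% and 39.9% in BPA, where control 2 and BPA 2 nearly met and the pile-up in BPA 1 was 11 reads. Lum had no region specific to either group.

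Dpp4, which encodes a dipeptidyl peptidase of the cell surface, marks the progenitors of the fibrous sheath and had the largest number of regions, 16. Its promoter ranked at 9.81% and 28.9% in the controls, and at 34.6% and 27.7% in BPA 1 and BPA 2. The groups overlapped, with control 1 well above the other libraries. In the same order the summits lay 706, 489, 560 and 576 bp downstream of the start site, inside the promoter in control 2 alone. Of the 16 regions, 13 and 10 were present in the controls and 6 and 6 in BPA, and 8 were found in a single control library. Over all 10 loci, 46, 37, 32 and 42 of the 67 regions were present in control 1, control 2, BPA 1 and BPA 2. Such counts by library were not taken over all coding loci, where 35.6% of regions were found in a single library of either group. Of 3 shared distal regions in the introns of Dpp4, 2 ranked better in both control libraries. The first, in intron 2, chr2:62390904-62392403 and 20.9 kb downstream of the start site, ranked at 16.7% and 13.0% in the controls and at 44.6% and 63.6% in BPA, with 56, 50, 20 and 26 reads. The second, in intron 5 and 32.8 kb downstream, ranked at 17.2%, 27.6%, 60.5% and 73.5%. The other region of intron 5, 30.9 kb downstream, overlapped between the groups at 33.4%, 86.4%, 92.1% and 83.3%. A further region of intron 2, 13.2 kb downstream, was absent from control 2 and ranked best in BPA 2, at 83.4% in control 1, 84.4% in BPA 1 and 65.4% in BPA 2. A region 11.3 kb upstream overlapped between the groups at 22.5%, 42.6%, 26.2% and 36.7%. Found only in the controls were a region in intron 2 (chr2:62394706-62395146, 43.1% and 83.8%) and one 8.08 kb upstream (chr2:62419980-62420694, 62.6% and 79.3%). No region of the locus was found only in BPA. A peak 14 kb upstream was strong in control 2, at 14.9%, and absent from the other libraries.

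Pi16, a peptidase inhibitor gene, is a marker of the same sheath progenitors. Its promoter peak, chr17:29318723-29319427, was present at 50.0% in BPA 1 and 43.8% in BPA 2 with 24 and 61 reads, and the summits lay 111 bp and 104 bp downstream of the start site. A region 2.94 kb upstream, chr17:29315608-29317178, was also found only in BPA, at 84.3% and 53.6%. The best single rank of the locus, 43.1% in BPA 2, belonged to a region 13.7 kb upstream that was found at 62.5% in BPA 1 and 84.8% in control 1 as well. No Pi16 region was found in all 4 libraries.

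Cd55 encodes a regulator of complement activation. Its promoter was the strongest of the 10 and the most even, at 6.01%, 6.74%, 5.79% and 6.68% in control 1, control 2, BPA 1 and BPA 2. The groups overlapped, with means of 6.37% ± 0.517 and 6.24% ± 0.629 (SD, n = 2 each). Beside it the locus held only 2 regions, each in a single control library.

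Icam1 encodes an adhesion molecule of committed preadipocytes, endothelium and leukocytes. Its promoter showed the widest difference between the groups of the 8 that were open in every library. It ranked at 40.7% in control 1 and 53.8% in control 2 and at 22.2% in BPA 1 and 11.2% in BPA 2, with 29, 22, 57 and 208 reads. The means were 47.3% ± 9.26 and 16.7% ± 7.83 (SD, n = 2 each), and the difference of −30.6 percentage points exceeded either spread. The local background rose with it, from 2.40 and 1.73 times the lowest in the controls to 8.93 and 9.14 times in BPA. The summits lay 676 and 57 bp upstream of the start site in control 1 and control 2, and 588 and 465 bp upstream in BPA 1 and BPA 2. Only those of control 2 and BPA 2 were inside the promoter. When the summit had to lie there, Icam1 did not count as open in every library. A region 18.7 kb upstream, chr9:20996867-20997785, was found only in BPA at 44.5% and 26.8%. It was nearer to the start site of Mrpl4, a mitochondrial ribosomal protein gene, whose own promoter was the strongest region of the locus and overlapped between the groups at 9.54%, 17.7%, 11.8% and 8.49%. A region 3.76 kb upstream was present in control 2 at 68.9% and in BPA at 38.3% and 46.8%.

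F3 encodes tissue factor (CD142), the initiator of blood coagulation. Its promoter ranked at 20.8%, 16.6%, 20.9% and 10.4% in control 1, control 2, BPA 1 and BPA 2, and the groups overlapped. A region at the upstream edge of the locus, chr3:121703108-121703650, was found only in BPA, at the weak ranks of 70.7% and 92.1%. The region 7.23 kb upstream was found in every library at 66.3%, 44.1%, 90.0% and 46.9%, also with overlap.

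The promoters of 4 members are shown for some of the patterns met above: BPA only (Pi16), better ranked in BPA (Cd34 and Icam1) and near the same rank in every library (Cd55). The 250 bases upstream of the start site were taken from the RefSeq promoter table for GRCm38.p6, which is the mm10 assembly. The table held 7 of the 10 members, and lacked Ly6a, Dcn and Lum, so the promoter that ranked worse in BPA (Lum) is not shown. Capitals mark matches on either strand to the motifs searched.
Pi16 (chr17:29318632-29318881, plus strand): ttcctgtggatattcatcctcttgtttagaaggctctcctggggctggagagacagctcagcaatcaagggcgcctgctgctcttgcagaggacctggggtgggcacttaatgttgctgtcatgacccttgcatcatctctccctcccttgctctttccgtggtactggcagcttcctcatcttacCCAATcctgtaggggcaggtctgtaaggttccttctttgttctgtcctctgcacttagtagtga
Cd34 (chr1:194938571-194938820, plus strand): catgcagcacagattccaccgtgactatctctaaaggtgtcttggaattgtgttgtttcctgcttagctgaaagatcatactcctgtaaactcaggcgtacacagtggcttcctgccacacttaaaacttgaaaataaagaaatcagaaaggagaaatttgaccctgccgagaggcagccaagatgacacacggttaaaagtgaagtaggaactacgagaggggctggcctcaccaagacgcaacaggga
Icam1 (chr9:21015690-21015939, plus strand): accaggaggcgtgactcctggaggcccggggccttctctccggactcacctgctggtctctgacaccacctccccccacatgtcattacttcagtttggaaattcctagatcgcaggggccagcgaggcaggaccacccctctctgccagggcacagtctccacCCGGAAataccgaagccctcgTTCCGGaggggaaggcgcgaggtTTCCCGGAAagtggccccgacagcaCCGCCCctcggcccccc
Cd55 (chr1:130462745-130462994, minus strand): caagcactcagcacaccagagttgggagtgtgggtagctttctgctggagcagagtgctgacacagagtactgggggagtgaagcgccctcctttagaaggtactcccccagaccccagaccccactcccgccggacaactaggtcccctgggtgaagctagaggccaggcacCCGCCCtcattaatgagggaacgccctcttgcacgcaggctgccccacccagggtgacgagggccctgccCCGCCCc
Those of AP-1, the factor family of Fos and Jun, were written as TGANTCA with N for any base. The C/EBP family of adipogenic factors was searched as TTGCNNAA, and its share of promoters was 10.8%. For TEAD, the partners of YAP, the letters were GGAATG. The GC box bound by Sp factors was GGGCGG. For RUNX factors TGTGGT was used. STAT factors, which relay cytokine signals, were searched with TTCNNNGAA. For the ETS family the search used CCGGAA. The core promoter elements were the TATA box, searched as TATAAA, and the CCAAT box, searched by the letters of its name. The palindrome of NF1 was searched as well. Over the 300 bases of the table entry, which run to 50 bases past the start site, G+C was 53.3% for Pi16, 50.0% for Cd34, 64.7% for Icam1 and 63.3% for Cd55, against a median of 52.7% over 32851 promoters. Pi16 held a CCAAT box, present in 37.4% of those promoters. Cd34 held no match to any motif in these 300 bases. Icam1 held 3 ETS matches (in 14.9% of promoters), a STAT match (8.30%) that overlaps an ETS match, 2 GC boxes (35.7%) and a TATA box (13.6%), and Cd55 held 2 GC boxes. These matches describe the letters and not binding.

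The regions of the 10 loci fell into classes in near the proportions of all coding loci. Of the 67 regions, 20 (29.9%) were found in all 4 libraries, against 30.1% of 95529 regions in loci of coding genes. Another 8 (11.9%) were found in both BPA libraries and no control library, against 9.71%. The reverse held for 4 (5.97%), against 4.64%. A single library gave 24 regions (35.8%, against 35.6% in all coding loci), and the remaining 11 were found in other combinations. Each of these shares was near its background. Where the group-specific regions lay was uneven: the 8 BPA-only regions fell in the loci of Pi16 and Cd34 (2 each) and of Pdgfra, Ly6a, Icam1 and F3 (1 each), and the 4 control-only regions in Dpp4 (2), Cd34 and Dcn (1 each). Once every peak had to reach a −log10 q-value of 5, 48 regions were left, of which 0 were control only and 8 BPA only. When a peak in 1 library of the group sufficed, the balance turned, with 25 control-only and 11 BPA-only regions. Leaving out control 1 gave 11 control-only and 10 BPA-only regions of 53, and leaving out control 2 gave 18 and 10 of 60. With 1 control library left, a control-only region needed a peak in that library alone, a looser rule. BPA-only regions still needed a peak in both BPA libraries, but had to be absent from the remaining control library only.

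**Figure D2:**
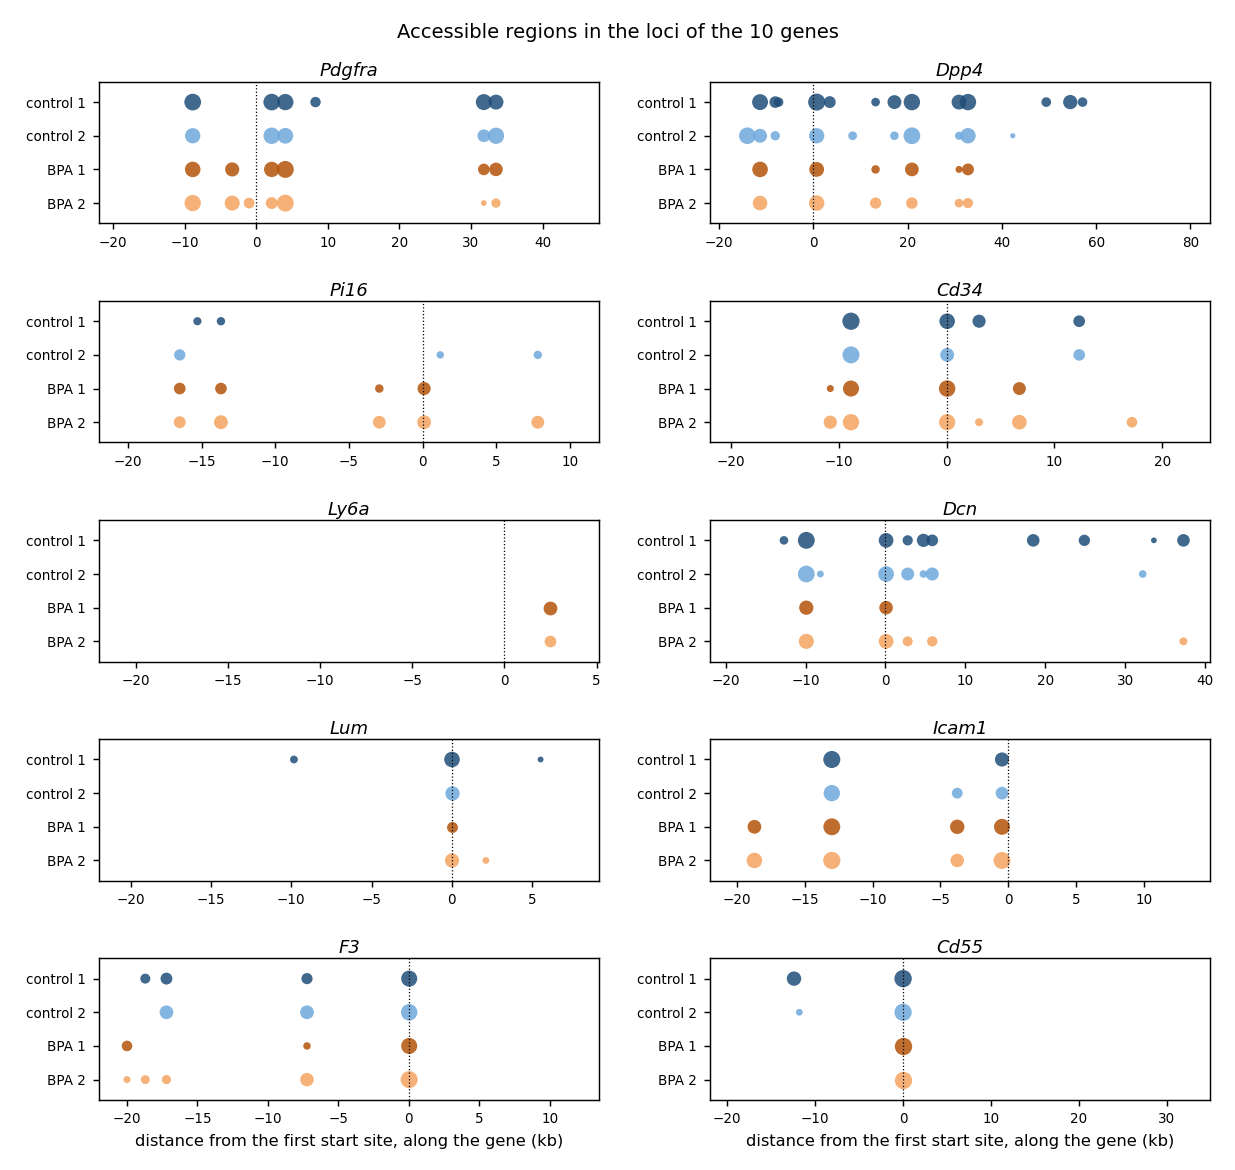
Regions in the 10 loci by the distance of the summit from the first start site along the gene (horizontal axis, kb), 1 row per library, with larger circles for stronger ranks and a dotted line at the first start site. Dpp4 and Dcn have more regions in the control rows, of which 8 and 6 are in a single control library. Counts by library were not taken over all coding loci. Pi16 has its promoter peak in the BPA rows alone, and Ly6a has a single region.

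Away from promoters, the shared regions whose ranks did not overlap between the groups all ranked worse in BPA. Of the 67 regions, 56 were distal, meaning that they overlapped the promoter of no curated transcript, and 11 of them were found in all 4 libraries. Both BPA ranks were worse than both control ranks at 7 of these 11, against a background of 30.5% of 16575 distal regions in coding loci, and better at 0, against a background of 22.7%. The groups overlapped at the other 4. The median difference between BPA and control ranks was 27.8 percentage points at the member regions and 3.26 at all distal regions. The 7 regions lay in the loci of Pdgfra, Dpp4, Cd34 and Dcn, and regions of 1 locus are not independent of each other. Ranks by the deposited fold over background in place of the q-value gave 5 such regions of 11.

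**Figure D3:**
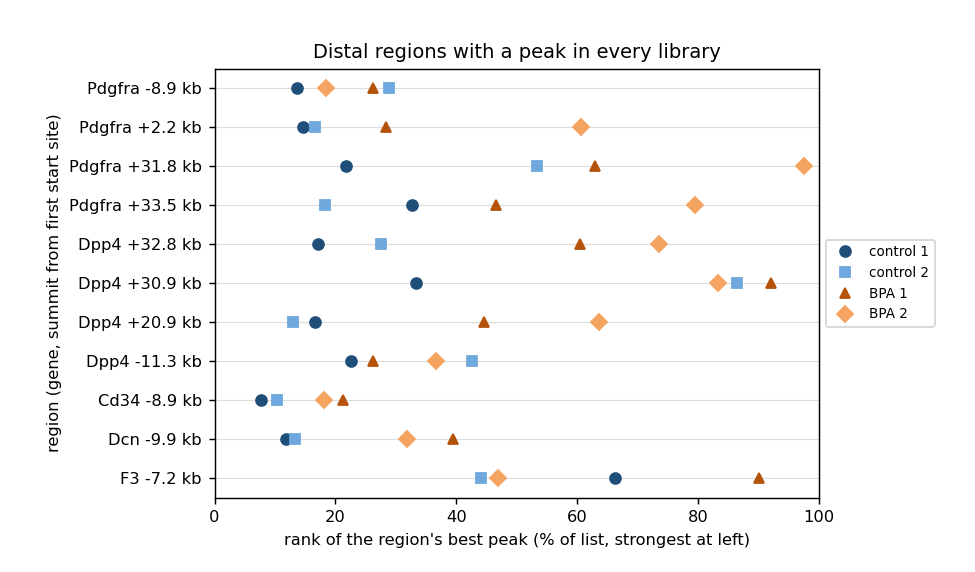
Ranks (horizontal axis, percent of the list, strongest at the left) of the 11 distal regions found in every library, by gene and distance from the first start site. At 7 regions both BPA symbols lie to the right of both control symbols, and at 4 they overlap.

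G+C content moved with these ranks across the whole genome. Around the summits of all 12166 open coding promoters, the median difference between BPA and control ranks was 1.16 percentage points in the bin of lowest G+C and −6.42 in the bin of highest, of 5 bins of equal size. Around all distal regions it ran from 10.7 in the lowest bin to −4.25 in the highest. The 100 bp on either side of the summits of the Lum and Dcn promoters, with 48.3% and 49.3% G+C, fell in bin 1, the lowest, while Pdgfra (67.7%), Cd34 (66.2%) and Cd55 (66.2%) fell in bin 3 and F3 (73.6%) in bin 5. Dpp4, at 57.7%, and Icam1, at 59.2%, fell in bin 2, where the median difference was −0.0339, and their own differences were 11.8 and −30.6. Of the 11 distal regions, 6 had a G+C of 43.8% or less and fell in bin 1. The regions 2.16 kb and 33.5 kb into Pdgfra fell in bin 5, with 56.2% and 57.2%, and differed by 28.9 and 37.5 percentage points. The part of base composition in the differences was not tested.

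**Figure D4:**
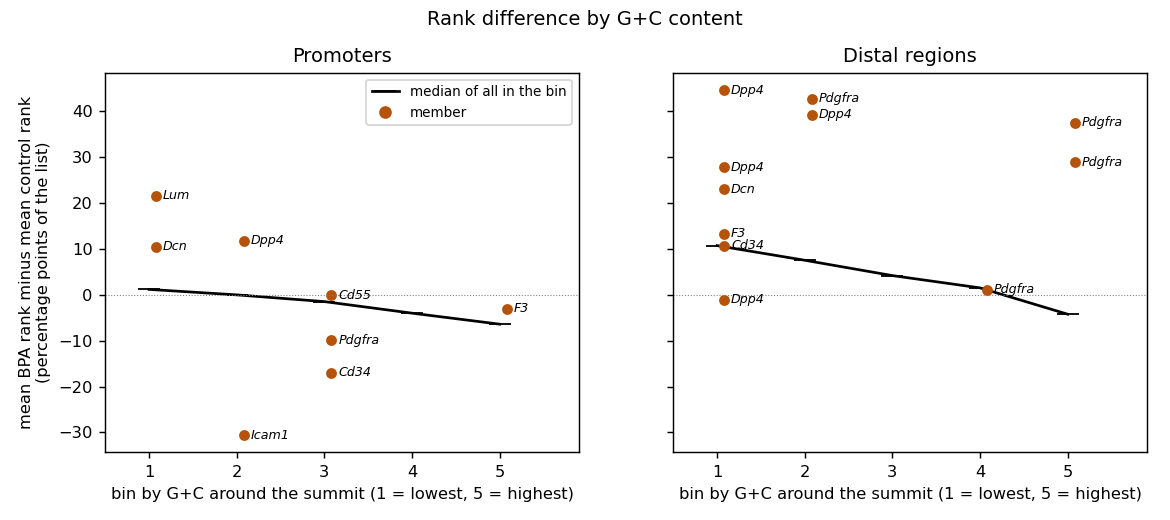
Mean BPA rank minus mean control rank (vertical axis, percentage points, positive where BPA ranks worse) by 5 bins of G+C around the summit, for promoters (left) and distal regions (right). The line joins the medians of all promoters or regions in a bin, from 1.16 to −6.42 and from 10.7 to −4.25, and the points are the members, with Icam1 at −30.6 and 2 Pdgfra regions of bin 5 at 28.9 and 37.5.

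Distal sequences are shown for 3 regions found only in BPA, 1 found only in the controls and the shared intron 2 region of Dpp4 that ranked worse in BPA. Each reaches 100 bp to either side of the strongest summit in the mm10 reference, with motif matches in capitals.
Pdgfra, 3.36 kb upstream, BPA only (chr5:75148794-75148994, plus strand): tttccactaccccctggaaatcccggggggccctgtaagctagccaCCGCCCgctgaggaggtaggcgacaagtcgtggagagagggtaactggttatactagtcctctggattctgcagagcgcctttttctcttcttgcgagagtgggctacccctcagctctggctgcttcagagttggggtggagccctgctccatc
Pi16, 2.94 kb upstream, BPA only (chr17:29315844-29316044, plus strand): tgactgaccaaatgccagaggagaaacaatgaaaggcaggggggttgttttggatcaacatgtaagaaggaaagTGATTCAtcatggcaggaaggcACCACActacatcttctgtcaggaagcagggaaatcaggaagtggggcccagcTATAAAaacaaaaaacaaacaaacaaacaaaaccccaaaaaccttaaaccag
Cd34, intron 1, BPA only (chr1:194945473-194945673, plus strand): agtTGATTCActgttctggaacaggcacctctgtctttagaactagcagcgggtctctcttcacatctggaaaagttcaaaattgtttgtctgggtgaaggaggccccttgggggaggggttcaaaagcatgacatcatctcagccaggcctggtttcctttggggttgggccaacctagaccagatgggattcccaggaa
Cd34, intron 4, control only (chr1:194950983-194951183, plus strand): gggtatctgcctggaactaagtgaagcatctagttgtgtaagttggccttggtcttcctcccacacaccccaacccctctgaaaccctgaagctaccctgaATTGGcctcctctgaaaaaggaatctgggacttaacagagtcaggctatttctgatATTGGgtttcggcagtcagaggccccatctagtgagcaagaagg
Dpp4, intron 2, all libraries (chr2:62391227-62391427, plus strand): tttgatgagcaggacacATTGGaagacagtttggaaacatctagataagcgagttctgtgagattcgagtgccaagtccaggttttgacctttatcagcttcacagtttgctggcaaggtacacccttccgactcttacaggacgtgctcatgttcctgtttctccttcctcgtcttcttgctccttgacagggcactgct
The BPA-only regions shown for Pi16 and Cd34 each hold an AP-1 match, and so does the Ly6a region. The other BPA-only region of Pi16 and of Cd34 holds none. AP-1 matches were thus present in 3 of the 8 BPA-only regions and in 1 of the 20 regions found in every library. They were present in 0 of the 4 control-only regions and in 4 of the 35 regions of other combinations, against 10.2% of all 147153 region windows. No such share was taken over the BPA-only regions of all loci. AP-1 had the highest count of the motifs searched in the 8 BPA-only regions. There the TATA box was present in 2, the GC box, RUNX, ETS and the CCAAT box in 1 each, and C/EBP, TEAD and STAT in 0. Cd34 intron 4 holds 2 CCAAT boxes, present in 24.9% of all windows, and Dpp4 intron 2 holds 1. The Pdgfra region holds a GC box, present in 9.64%. No NF1 palindrome was found in any member region, and it occurs in 0.0680% of all windows. Median G+C was 47.5% in the BPA-only regions, 45.5% in the control-only regions and 50.5% in those found in every library, against 47.8% over all windows.

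Other genes of the same cell types, listed with earlier results of these data known, were mostly open in every library as well. Of 41 such genes, 31 had a promoter peak in all 4 libraries, 5 only in BPA, 0 only in the controls and 2 in none, beside 57.9%, 2.51%, 0.433% and 30.4% of all coding promoters. The BPA-only genes were Wnt2, a secreted signalling factor, Has1, which makes hyaluronan, Col15a1, a basement membrane collagen, Gdf10, a growth factor of the BMP family, and Cygb, a globin of fibroblasts. Col15a1 had the best ranks of these, 27.0% in BPA 1 and 19.5% in BPA 2, and Has1 the poorest, 96.9% and 71.6%. Promoter peaks were found for 8, 7, 10 and 10 of 10 interstitial progenitor genes in control 1, control 2, BPA 1 and BPA 2, and for 3, 4, 6 and 6 of 7 genes of the CD142+ regulatory cells. For 10 committed preadipocyte genes the counts were 8, 8, 9 and 9. All 6 stromal transcription factors were open in every library. Tcf21, which marks visceral stroma, ranked at 66.6% and 76.6% in the controls and 27.8% and 23.0% in BPA. Ebf2, Zfp423, Osr1 and Twist2 also ranked better in both BPA libraries, a pattern found at 40.7% of open coding promoters. Prrx1 overlapped between the groups, at 23.8%, 43.0%, 84.2% and 17.9%. Of 8 pan-fibroblast genes 7 were open in every library, and the exception, Thy1, lacked a peak in control 2. Col1a1, a fibrillar collagen, ranked at 82.7%, 23.7%, 12.2% and 8.72%, so that control 1 stood apart. Cd248, at 84.5%, 74.6%, 21.2% and 17.2%, and Gsn, at 16.5%, 10.3%, 6.44% and 8.39%, also ranked better in both BPA libraries. Others of this list went the other way. Col1a2, the partner chain of Col1a1, ranked at 15.7%, 13.8%, 26.8% and 20.4%. Pdgfrb, a receptor of mural cells and fibroblasts, ranked at 20.8%, 24.3%, 27.4% and 27.4%. Col3a1, at 28.6%, 34%, 30.0% and 47.3%, and Mfap5, at 23.8%, 52.0%, 51.4% and 47.0%, overlapped between the groups.

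**Figure D5:**
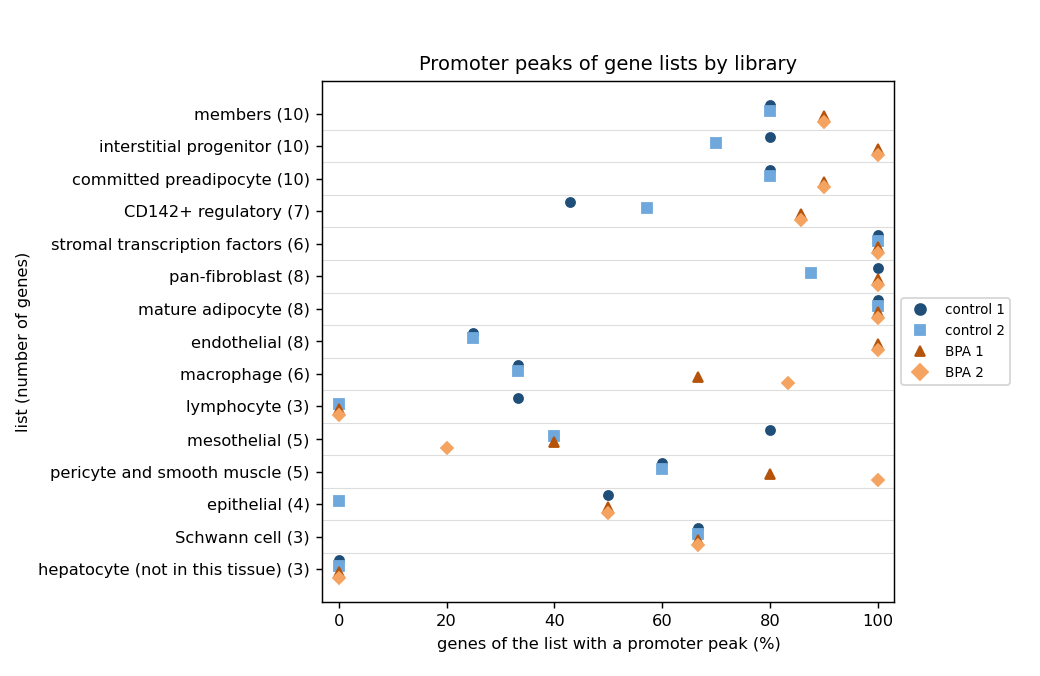
Percent of the genes of each list with a promoter peak (horizontal axis) in each library, with the number of genes in brackets. The members lie at 8 of 10 genes in the controls and 9 of 10 in BPA, the endothelial list at 2 and 8 of 8, and the mature adipocyte list at 8 of 8 throughout.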

How the data were processed

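ATAC-seq was performed by the authors on nuclei of visceral adipose tissue. Per the labels and the study's methods, the authors trimmed reads with Trim Galore, mapped them to mm10 with Bowtie2 2.3.5.1, kept uniquely mapped reads, removed duplicates with SAMtools and ran MACS2 2.2.7.1 separately on every library. The 4 deposited lists give for each peak a ratio, the fold of the summit pile-up over local background, a −log10 p-value, a −log10 q-value and the summit. The smallest deposited −log10 q-values, 1.302 to 1.307, fit a q-value threshold of 0.05. The lists hold no read totals.

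Pile-up and background were solved here from the deposited fold and p-value, up to a −log10 p-value of 300, within a relative error of 1e-04. This left 8, 7, 7 and 1504 peaks unsolved in control 1, control 2, BPA 1 and BPA 2. The lowest background stands in for depth and also moves with read extension. Peaks of the 4 libraries that shared at least 1 bp were merged. Start sites came from 45756 curated RefSeq transcripts on GRCm38.p6, with 31601 distinct sites, and 0 peaks lay beyond its chromosome ends. Python 3.11.15, numpy 2.4.6, scipy 1.17.1, pandas 2.3.3, pysam 0.24.0 and matplotlib 3.10.9 were used, and the peak handling was tested on simulated data.

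Only GEO's labels set the groups. The named regions were all those found in both libraries of a single group, and the best-ranked region of each gene. Regions quoted beyond these were chosen after the values were seen. So were the stromal transcription factors and pan-fibroblast genes quoted, the count of AP-1 matches by class of region, and the comparison by G+C content and by 50-base words. The members and gene lists were chosen with earlier results of these data known. Alternatives were other promoter and locus widths, a −log10 q-value of 5 or more, summits instead of peaks, the best 20000 peaks or as many as in the shortest list, overlaps of other size, other ranks and each library left out.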

Additional observations from a re-analysis of the deposited data

How the results depend on the processing

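Of 78 alternative values, 57 stayed within 1.5 times the count or within the spread of the replicates, 19 moved further and 2 reversed in sign. Of the 8 promoters open in every library, 5 were left when the summit had to lie in the promoter and 2 with the best 20000 peaks, and the BPA-only promoters then numbered 2 in both cases. Regions in all 4 libraries numbered 20 of 67, and 31 of 90 with 50 kb upstream, 4 of 17 with the best 20000 peaks and 10 with peaks sharing 50% of both lengths. The 8 BPA-only regions of 67 became 2 of 17 with the best 20000 peaks and 5 with the overlap of 50%. The 4 control-only regions became 0 at a −log10 q-value of 5 or more, 2 with the overlap of 50% and 25 when 1 library of the group sufficed, where BPA-only regions numbered 11. Leaving out a library in turn gave 4 to 18 control-only regions, with 11 without control 1, 18 without control 2 and 7 without BPA 2, beside 10, 10 and 9 BPA-only regions. The median rank difference of member promoters of −1.58 became 2.75 when ranks were taken among promoter peaks only. With a library left out it ran from −3.98 to 0.816, the last without BPA 2, so its sign depends on that library. The 7 distal regions with worse ranks in BPA became 11 of 20 with 50 kb upstream. The 5 further genes open only in BPA became 3 with promoters of 1000 bp either side and 8 at a −log10 q-value of 5 or more or with the best 20000 peaks. The rule for a region of 1 group only was looser where 1 library of the group sufficed or a library of either group was left out. Leaving out a library of the other group took away a library from which the region had to be absent. The cause of the moves beyond this was not tested. No paired analysis was possible because the replicate numbers mark no shared animal or batch and no test was run. Alternatives for the distal ranks and the further genes were added after the data were seen. The shallow BPA 1 limits what can be called absent there.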
